A study of Mus musculus with 12 samples.

Results

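The genes described are 39 antiviral effectors among the interferon-stimulated genes of the mouse, chosen by name from a list of effectors outside the Ifit, Oas, guanylate-binding protein, Ifi200 and Schlafen families. All 39 were matched by symbol, through GENCODE, among the 54532 genes counted, and Ddx58 is the older symbol of the gene now called Rigi. They were followed in bulk RNA sequencing of tissue labelled striatum from C57BL/6J mice after ischemic stroke. The 6 groups were WT, cGAS-KO and STING-KO at 7 days and the same 3 genotypes at 14 days, with 2 libraries in each and 12 in all. Per the labels, the cGAS-KO and STING-KO mice were made deficient in Cgas or Sting with CRISPR-Cas9, and all 6 groups, WT included, had the stroke, so no uninjured group is described here. The labels give neither the age of the animals nor whether the 2 libraries of a group came from separate mice, so the tests rest on library-to-library spread, which may be technical only.

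Type I interferons bind the receptor IFNAR, whose kinases JAK1 and TYK2 activate the transcription factor complex ISGF3. ISGF3 binds the interferon-stimulated response element (ISRE) in promoters and so raises a large set of genes, among them the effectors described here, which block the entry, replication, translation or release of viruses or tune the response itself. cGAS senses DNA in the cytosol and makes the dinucleotide cGAMP, which activates STING and through it interferon production. In the brain, microglia and infiltrating myeloid cells are major responders to interferon, and sterile injury can also raise these genes.

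The letters of the promoters are shown for 6 members, chosen for the levels described below. Bst2 rose most at 7 days in cGAS-KO and Phf11b in STING-KO. Lgals9 was higher in the 7-day knockout libraries than in 14-day WT, and Isg15 was lower. Isg15 was not extreme in this: its ratio of 14-day WT to 7-day cGAS-KO means was 1.46, against a members' median of 1.64. Rsad2 and Cmpk2 are neighbours that moved differently. Each stretch is the 150 bases before the RefSeq start of the gene on its own strand (GRCm38.p6, 5′ to 3′), and capitals mark matches, on either strand, to the ISRE core searched here (GAAANNGAA).
Isg15 (chr4:156200819-156200968, minus strand): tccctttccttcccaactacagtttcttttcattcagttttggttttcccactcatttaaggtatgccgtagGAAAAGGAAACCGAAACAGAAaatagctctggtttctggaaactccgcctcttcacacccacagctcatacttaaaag
Bst2 (chr8:71537473-71537622, minus strand): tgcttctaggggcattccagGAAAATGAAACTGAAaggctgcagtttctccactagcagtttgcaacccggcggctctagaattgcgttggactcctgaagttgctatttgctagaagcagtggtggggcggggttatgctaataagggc
Phf11b (chr14:59341331-59341480, minus strand): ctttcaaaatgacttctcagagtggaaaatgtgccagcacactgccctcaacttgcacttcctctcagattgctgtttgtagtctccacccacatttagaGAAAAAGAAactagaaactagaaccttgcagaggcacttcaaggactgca
Lgals9 (chr11:78984925-78985074, minus strand): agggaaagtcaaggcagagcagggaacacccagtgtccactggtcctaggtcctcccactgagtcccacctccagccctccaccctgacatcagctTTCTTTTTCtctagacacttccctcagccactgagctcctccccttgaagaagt
Rsad2 (chr12:26456453-26456602, minus strand): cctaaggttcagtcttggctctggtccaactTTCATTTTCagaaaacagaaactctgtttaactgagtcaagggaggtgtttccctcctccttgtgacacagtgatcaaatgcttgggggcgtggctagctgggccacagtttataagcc
Cmpk2 (chr12:26469065-26469214, plus strand): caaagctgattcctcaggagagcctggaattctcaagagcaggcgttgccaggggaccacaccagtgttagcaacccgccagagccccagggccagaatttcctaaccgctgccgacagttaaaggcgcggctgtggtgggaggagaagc

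The matches in Isg15 lay 78, 72 and 66 bases before the start and overlap one another, those in Bst2 lay 130 and 124 bases before it and also overlap, and those in Rsad2, Lgals9 and Phf11b lay 119, 54 and 50 bases before it. The printed stretch of Cmpk2 held no match. Of the 39 members, 29 had a RefSeq promoter window, and 9 of these 29 (31%) held the core in the 250 bases before a start, against 8.18% of all 27025 genes with a window (7.13% of all 32851 windows). The other 4 with a match were Trim25, Ifih1, Adar and Trim30a. The gamma-activated sequence (TTCNNNGAA, both strands), the element of interferon gamma signalling, was in 2 of 29 (6.9%) against 8.13% of all genes with a window. A match describes letters only. The 9 members with a core match had a median log2 change of 2.78 in cGAS-KO against WT at 7 days (range -1.07 to 5.02) and the 20 with a window but no match had 2.58 (range -0.37 to 4.02). The search took exact letters only, and windows with no match can hold stretches close to the core. The split therefore does not sort members with an ISRE from members without.

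Library totals ran from 15956242 to 22126213 counts, so that 3 counts equal 0.133 to 0.195 CPM (counts per 1e6, scaled to the library total times its TMM factor). All 39 members passed the filter on low counts (19822 genes did), and no member was at 0 in any library. The fewest counts were 3, for Phf11b in 7-day WT replicate 2. Exon bases are shared with another gene for 15 members, most for Adar and Ifi35 (16.8% of their exon bases each), Rtp4 (13.9%) and Herc6 (13.7%), and the Phf11, Trim30, Ifitm, Mx and Ifi27 families hold paralogs, so reads of these genes could be split or lost in counting. At 7 days the levels of the targeted transcripts went against the labels when set beside WT, but not between the knockout groups. Cgas read 3.25 and 2.97 CPM in WT and 5.55 and 5.66 CPM where the label is cGAS-KO. Tmem173, the gene of STING, read 2.80 and 2.71 CPM in WT and 20.9 and 23.8 CPM where the label is STING-KO. Both transcripts together summed to 34.2 to 35.9 CPM in 7-day cGAS-KO and 32.1 to 36.4 CPM in 7-day STING-KO. Between these groups Cgas was thus lower in cGAS-KO and Tmem173 lower in STING-KO. Microglial markers summed to 316 to 330 CPM in 7-day WT and 2617 to 3668 CPM in the 7-day knockouts. At 14 days Cgas read 12.6 and 7.68 CPM in WT against 4.09 and 6.15 CPM in cGAS-KO, and Tmem173 read 22.3 and 20.8 CPM in WT against 2.40 and 5.21 CPM in STING-KO. Which part of each gene was deleted is not given in the sources used here, so every genotype below is the one the library is labelled with, and every direction is between libraries so labelled. Cell type markers differed between the groups. The summed level of 10 striatal projection neuron markers was 341 to 361 CPM in 7-day WT, 222 to 564 CPM in both 7-day knockout groups, 1002 to 1201 CPM in 14-day WT, 2000 to 3233 CPM in 14-day cGAS-KO and 6999 to 7857 CPM in 14-day STING-KO, while 10 general neuronal markers summed to 10367 to 11349 CPM in 7-day WT and 1761 to 4779 CPM elsewhere.

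The 39 genes did not follow a single order of genotypes. Both 7-day WT libraries were low and the 7-day knockout libraries high; at 14 days WT was highest, cGAS-KO intermediate and STING-KO low. The group with the highest mean was 14-day WT for 32 members, 7-day cGAS-KO for 5 (Lgals9, Ifi35, Parp10, Trim25 and Trim21), 7-day STING-KO for Bst2 and 7-day WT for Adar. The group with the lowest mean was 7-day WT for 36 members, and Adar (7-day cGAS-KO), Cmpk2 (7-day STING-KO) and Ifi35 (14-day STING-KO) were the exceptions. Neighbours in this order that were compared and did not pass the test for any member were cGAS-KO and STING-KO at 7 days, and WT and cGAS-KO at 14 days. Per kilobase of exon, the mean level over the 12 libraries ran from 108 CPM for Ifitm3 to 1.08 CPM for Ifi44.

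**Figure D1:**
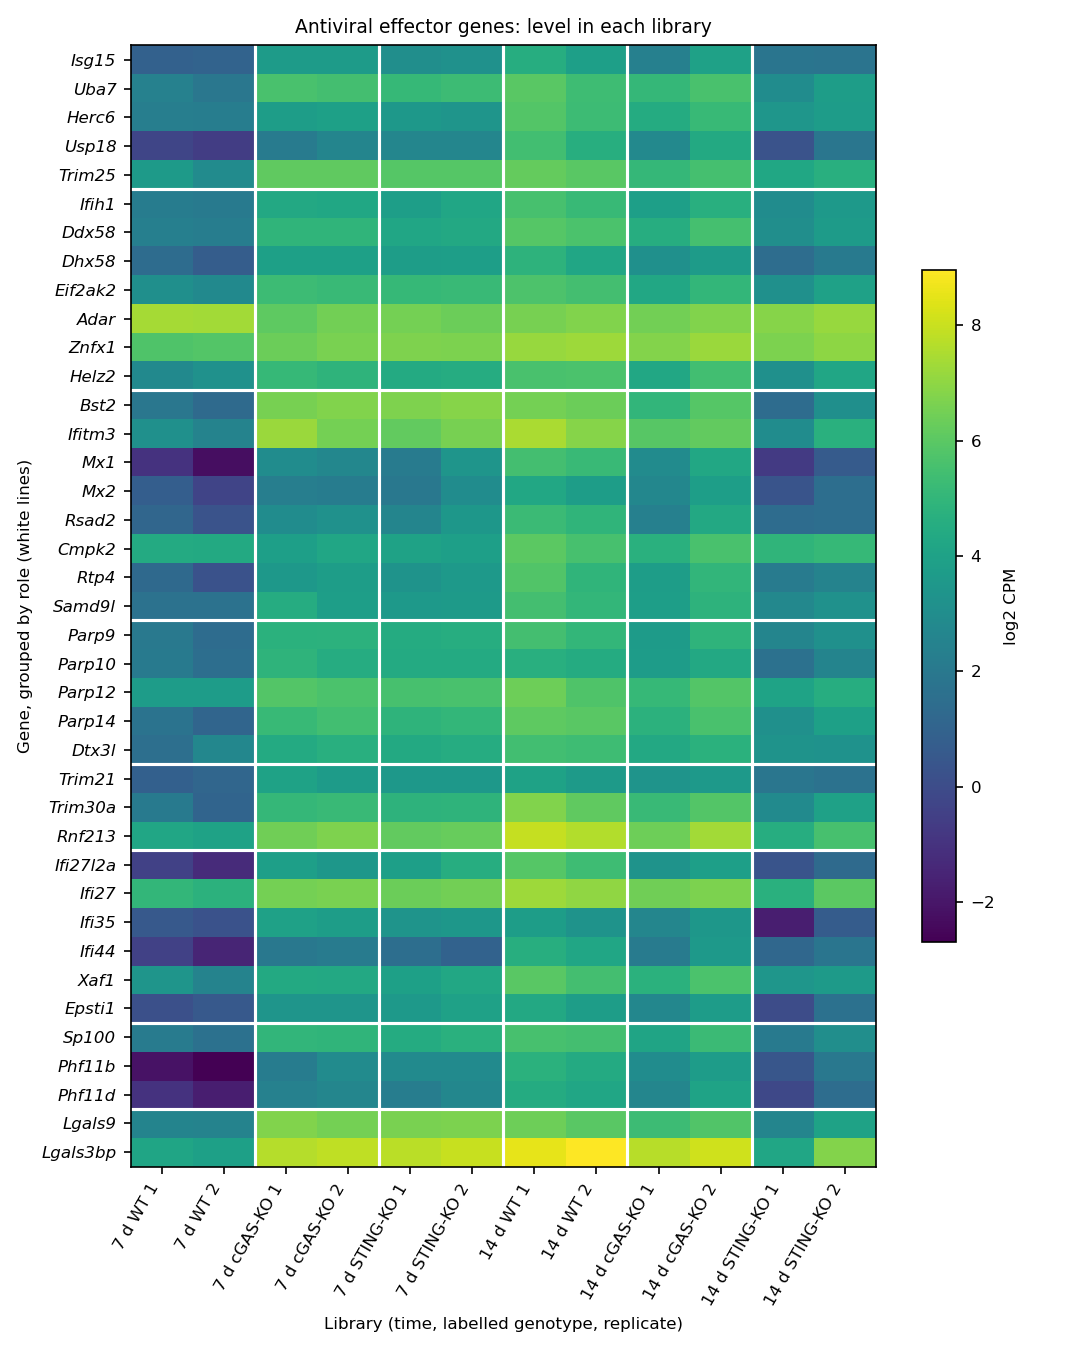
Level of each of the 39 genes (rows, grouped by role with white lines) in each of the 12 libraries (columns, by day, labelled genotype and replicate), in log2 CPM. The 7-day WT columns are the darkest for 36 of 39 genes by group mean, and the 14-day WT columns the brightest for 32; Adar runs the other way at 7 days.

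ISG15 is a ubiquitin-like protein that is joined to other proteins by the activating enzyme Uba7 and the ligase Herc6, and removed by the protease Usp18, which also damps signalling from IFNAR. Trim25 is the ubiquitin ligase that aids the sensor RIG-I. Trim25 (chr11:88999376-89020293) stood at 12.5 and 7.67 CPM in 7-day WT, 69.1 and 69.2 in 7-day cGAS-KO and 58.7 and 58.5 in 7-day STING-KO. At 14 days Trim25 stood at 73.1 and 63 CPM in WT, 34 and 46.6 in cGAS-KO and 18.8 and 25.1 in STING-KO. Its 7-day WT libraries were the lowest of all and its 7-day knockout libraries were near 14-day WT. Uba7 (chr9:107975505-107984060) stood at 5.33 and 3.83 CPM in 7-day WT, 49.6 and 45 in 7-day cGAS-KO and 34.2 and 39.8 in 7-day STING-KO. At 14 days Uba7 stood at 63.3 and 41.2 CPM in WT, 33.3 and 49.3 in cGAS-KO and 7.74 and 13.8 in STING-KO. Both 14-day STING-KO libraries of Uba7 were below every library outside 7-day WT. At 7 days Trim25 rose in cGAS-KO (2.78 ± 0.24, adjusted p = 2.84e-06, edgeR quasi-likelihood test with Benjamini-Hochberg adjustment over all genes, used for every log2 change ± SE below) and in STING-KO (2.55 ± 0.24, adjusted p = 5.15e-06). All 5 genes of this role rose at 7 days in both knockouts, with a range of 1.59 to 3.37 in cGAS-KO and 1.17 to 3.05 in STING-KO. All 5 fell at 14 days in STING-KO, with log2 changes of -3.81 (Usp18) to -1.63. Of all tested genes, 27.8% were called higher in cGAS-KO and 26.3% in STING-KO at 7 days, and 17.4% lower in STING-KO at 14 days. These shares also stand beside the counts of each role below. The 7-day rise of Usp18 in cGAS-KO did not pass without 7-day cGAS-KO replicate 2 or 7-day WT replicate 2 (adjusted p = 0.0532 and 0.0641). Isg15 itself stood at 1.91 and 1.99 CPM in 7-day WT, 13.2 and 13.2 in 7-day cGAS-KO, 8.37 and 9.16 in 7-day STING-KO, 23.8 and 14.7 in 14-day WT, 5.25 and 15.9 in 14-day cGAS-KO and 3.60 and 3.45 in 14-day STING-KO. The 2 libraries of 14-day cGAS-KO lay far apart for Isg15, one near 14-day STING-KO and the other within the range of 14-day WT.

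Among sensors and RNA-binding enzymes, Ifih1 encodes MDA5, Ddx58 RIG-I and Dhx58 LGP2, helicases that recognise viral RNA; Eif2ak2 encodes PKR, the kinase that halts translation on double-stranded RNA; Adar edits adenosine to inosine in such RNA and keeps it from being sensed. Znfx1 and Helz2 are helicases. Adar (chr3:89715022-89753446) stood at 167 and 163 CPM in 7-day WT, 68.3 and 89.3 in 7-day cGAS-KO and 92.3 and 80.1 in 7-day STING-KO. At 14 days Adar stood at 95.6 and 107 CPM in WT, 90.0 and 109 in cGAS-KO and 116 and 146 in STING-KO. Adar was the one member whose 7-day WT libraries were above all others. Znfx1 (chr2:167035793-167063015) stood at 54.1 and 57.2 CPM in 7-day WT, 82 and 98.5 in 7-day cGAS-KO and 105 and 100.3 in 7-day STING-KO. At 14 days Znfx1 stood at 142 and 153 CPM in WT, 113 and 149 in cGAS-KO and 102 and 125 in STING-KO. Znfx1 was lowest in 7-day WT but its groups spanned a narrow range. At 7 days Adar fell in cGAS-KO (-1.07 ± 0.18, adjusted p = 0.000348) and in STING-KO (-0.94 ± 0.18, adjusted p = 0.000893), and the other 6 rose in both, from Znfx1 (0.70 ± 0.17 in cGAS-KO and 0.89 ± 0.17 in STING-KO) up to 2.79 and 2.70. Helz2 did not pass in STING-KO at 7 days without 7-day WT replicate 1 (adjusted p = 0.0725). At 14 days in STING-KO 5 of 7 fell, and Adar (0.37 ± 0.17, adjusted p = 0.127) and Znfx1 (-0.38 ± 0.17, adjusted p = 0.101) did not pass. Without 7-day cGAS-KO replicate 2 Znfx1 no longer passed in cGAS-KO at 7 days (log2 change 0.48, adjusted p = 0.0803), and it passed in STING-KO at 14 days without 14-day STING-KO replicate 2 (-0.55, adjusted p = 0.0441) and with library totals alone as the scaling (-0.46, adjusted p = 0.0460). Of the exon bases of Adar, 16.8% are shared with Chrnb2, a neuronal receptor subunit on the opposite strand, and whether reads were counted by strand is not given in the sources used here. Chrnb2 stood at 77.1 and 79.9 CPM in 7-day WT and between 13.8 and 48.7 CPM in the other libraries, and the summed neuronal markers were likewise highest in 7-day WT; the part of that overlap, or of neurons, in the level of Adar was not tested.

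The genes that restrict entry, replication or release include Ifitm3, which blocks fusion of viruses with endosomes, Bst2 (tetherin), which holds budding virions at the cell surface, the dynamin-like GTPases Mx1 and Mx2, and Rsad2 (viperin), which makes a chain-terminating nucleotide from CTP. Cmpk2 is a mitochondrial nucleotide kinase. Ifitm3 (chr7:141009586-141010770) stood at 8.97 and 5.78 CPM in 7-day WT, 147 and 92.5 in 7-day cGAS-KO and 72.3 and 94.7 in 7-day STING-KO. At 14 days Ifitm3 stood at 179 and 116 CPM in WT, 60.5 and 71.1 in cGAS-KO and 7.92 and 25.9 in STING-KO. For Ifitm3 the 14-day STING-KO replicate 1 lay within the range of 7-day WT. Bst2 (chr8:71534255-71537456) stood at 3.81 and 2.51 CPM in 7-day WT, 96.2 and 108 in 7-day cGAS-KO and 105 and 117 in 7-day STING-KO. At 14 days Bst2 stood at 93.8 and 81.7 CPM in WT, 31.9 and 58.9 in cGAS-KO and 2.64 and 8.53 in STING-KO. Bst2 was higher in all 4 of the 7-day knockout libraries than in either 14-day WT library, and 14-day STING-KO replicate 1 again lay within the range of 7-day WT. Bst2 rose at 7 days in cGAS-KO (5.02 ± 0.46, adjusted p = 5.96e-06), the largest change of any member there, and in STING-KO (5.14 ± 0.46, adjusted p = 5.29e-06). At 14 days in STING-KO it fell (-3.99 ± 0.43, adjusted p = 0.000116). Mx1 stood at 0.505 and 0.205 CPM in 7-day WT, 7.84 and 6.53 in 7-day cGAS-KO, 4.47 and 10.3 in 7-day STING-KO, 44.7 and 37.5 in 14-day WT, 7.70 and 19.6 in 14-day cGAS-KO and 0.600 and 1.56 in 14-day STING-KO. Unlike Bst2, Mx1 was far lower in every 7-day knockout library than in either 14-day WT library. Its fall in STING-KO at 14 days was the largest of the 39 (-5.26 ± 0.59, adjusted p = 0.000139).

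The GENCODE starts of Rsad2 and Cmpk2 lie 12752 bases apart on chromosome 12, and the genes point away from each other. Their promoters printed above were taken before the RefSeq starts, and that of Cmpk2 differs slightly from its GENCODE start. Rsad2 stood at 2.24 and 1.23 CPM in 7-day WT, 7.96 and 9.11 in 7-day cGAS-KO, 6.02 and 11 in 7-day STING-KO, 38.3 and 30.8 in 14-day WT, 5.21 and 20.4 in 14-day cGAS-KO and 2.70 and 2.87 in 14-day STING-KO. Cmpk2 stood at 21.7 and 21.2, 14.5 and 18.5, 16.1 and 14.7, 66 and 47.9, 25.9 and 49.3 and 30.5 and 35 CPM in the same groups. Both were highest in 14-day WT, but at 7 days Rsad2 rose in the knockouts (2.31 ± 0.63, adjusted p = 0.0099 in cGAS-KO and 2.31 ± 0.63, adjusted p = 0.0101 in STING-KO) whereas Cmpk2 did not pass (-0.37 ± 0.28, adjusted p = 0.287 and -0.48 ± 0.28, adjusted p = 0.174). The rise of Rsad2 no longer passed without 7-day WT replicate 2 (adjusted p = 0.0884 in cGAS-KO and 0.0909 in STING-KO), with no filter (0.0611 and 0.0622) or, in STING-KO, without 7-day STING-KO replicate 2 (0.0931). Cmpk2 passed as lower in STING-KO at 7 days with only the compared libraries fitted (-0.50, adjusted p = 0.0159). Cmpk2 fell in STING-KO at 14 days (-0.80 ± 0.26, adjusted p = 0.0362), the smallest change called there, and no longer passed without either 14-day STING-KO library or without 14-day WT replicate 1 (adjusted p = 0.172, 0.0633 and 0.233), nor with the 7-day WT group left out (0.0531). Mx2 no longer passed at 7 days in cGAS-KO without 7-day cGAS-KO replicate 1 or 2 or 7-day WT replicate 2 (adjusted p = 0.0752, 0.0625 and 0.148), nor in STING-KO without 7-day STING-KO replicate 2 or 7-day WT replicate 2 (0.0935 and 0.0808). Of the 8 genes of this role, 7 rose at 7 days in each knockout and all 8 fell at 14 days in STING-KO, with log2 changes of -5.26 to -0.80.

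**Figure D2:**
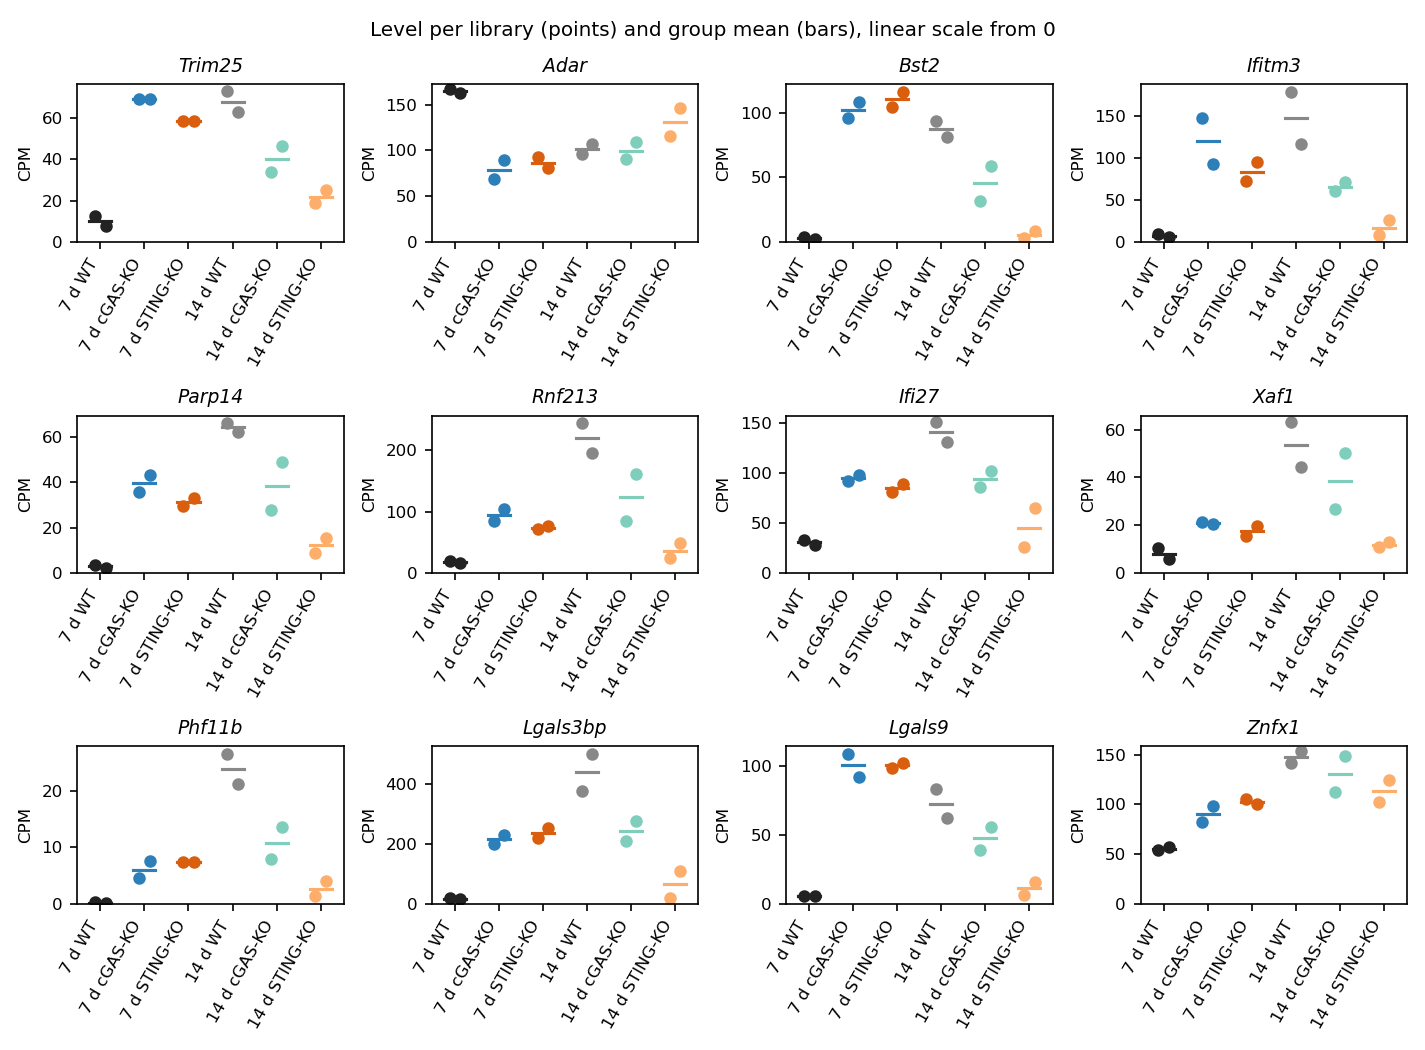
CPM of 12 members in each library (points) with the group mean (bars), on linear axes from 0; groups run from 7-day WT to 14-day STING-KO. For most panels 7-day WT and 14-day STING-KO lie low and 14-day WT highest. Bst2 and Lgals9 are highest in the 7-day knockout groups, and Adar in 7-day WT. Trim25 is highest by a small margin in 7-day cGAS-KO (mean 69.2 CPM against 68.1 CPM in 14-day WT).

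The PARP enzymes attach ADP-ribose to proteins, and Parp9 works with the ubiquitin ligase Dtx3l, whose gene lies beside it with overlapping exons. Parp12 (chr6:39086410-39118349) stood at 13.2 and 13.5 CPM in 7-day WT, 57.9 and 50.2 in 7-day cGAS-KO and 48 and 49 in 7-day STING-KO. At 14 days Parp12 stood at 83.8 and 53.8 CPM in WT, 35 and 58.2 in cGAS-KO and 16.6 and 23.6 in STING-KO. Replicate 2 of 14-day cGAS-KO lay within the range of 14-day WT. Parp14 (chr16:35832874-35871544) stood at 3.37 and 2.15 CPM in 7-day WT, 35.8 and 43.4 in 7-day cGAS-KO and 29.5 and 32.9 in 7-day STING-KO. At 14 days Parp14 stood at 66.4 and 62.5 CPM in WT, 27.9 and 49.1 in cGAS-KO and 8.94 and 15.2 in STING-KO. For Parp14 the groups at 14 days did not overlap. Parp14 rose by 3.85 ± 0.35, adjusted p = 4.63e-06 in cGAS-KO and by 3.51 ± 0.35, adjusted p = 9.48e-06 in STING-KO at 7 days. All 5 genes rose in both knockouts at 7 days (2.01 to 3.85 and 1.86 to 3.51), and all 5 fell in STING-KO at 14 days (-2.42 to -1.77).

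Rnf213 is a giant ubiquitin ligase that coats pathogens and is known for its link to moyamoya disease of brain arteries. Trim21 is a cytosolic antibody receptor, and Trim30a damps Toll-like receptor signalling. Rnf213 (chr11:119393100-119487418) stood at 18.6 and 16.3 CPM in 7-day WT, 85.4 and 103 in 7-day cGAS-KO and 71.1 and 76.7 in 7-day STING-KO. At 14 days Rnf213 stood at 246 and 196 CPM in WT, 85.3 and 162 in cGAS-KO and 23.8 and 47.8 in STING-KO. Its 14-day WT libraries were above all others. Trim30a (chr7:104409025-104465193) stood at 4.32 and 2.10 CPM in 7-day WT, 33.1 and 37.3 in 7-day cGAS-KO and 28.5 and 29.6 in 7-day STING-KO. At 14 days Trim30a stood at 109 and 69 CPM in WT, 37.2 and 57.1 in cGAS-KO and 7.38 and 15.7 in STING-KO. The 14-day WT libraries were above all others for Trim30a too. At 7 days Rnf213 rose by 2.44 ± 0.35, adjusted p = 0.000148 in cGAS-KO, and at 14 days it fell in STING-KO (-2.63 ± 0.34, adjusted p = 0.00028). All 3 genes rose in both knockouts at 7 days and fell in STING-KO at 14 days.

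Ifi27 and Ifi27l2a encode small membrane proteins, Xaf1 a partner of the apoptosis inhibitor XIAP, and Ifi35, Ifi44 and Epsti1 other interferon-induced proteins. Ifi27 (chr12:103434211-103440239) stood at 32.8 and 28.1 CPM in 7-day WT, 92.4 and 97.9 in 7-day cGAS-KO and 80.8 and 89.3 in 7-day STING-KO. At 14 days Ifi27 stood at 152 and 131 CPM in WT, 86.4 and 102 in cGAS-KO and 25.9 and 64.7 in STING-KO. Replicate 1 of 14-day STING-KO was below 7-day WT for Ifi27, and replicate 2 was above it. Xaf1 (chr11:72301629-72313733) stood at 10.4 and 5.73 CPM in 7-day WT, 21.1 and 20.2 in 7-day cGAS-KO and 15.4 and 19.4 in 7-day STING-KO. At 14 days Xaf1 stood at 63 and 44.1 CPM in WT, 26.6 and 50.2 in cGAS-KO and 10.9 and 12.8 in STING-KO. Xaf1 rose least of this role at 7 days, by 1.36 ± 0.34, adjusted p = 0.00616 in cGAS-KO and 1.12 ± 0.34, adjusted p = 0.0185 in STING-KO, and it no longer passed in either without 7-day WT replicate 2 (adjusted p = 0.0676 and 0.162), nor in STING-KO without 7-day STING-KO replicate 2 (0.129). All 6 genes rose at 7 days in both knockouts, up to Ifi27l2a (4.49 ± 0.48, adjusted p = 1.48e-05 in cGAS-KO and 5.09 ± 0.47, adjusted p = 4.97e-06 in STING-KO). All 6 fell at 14 days in STING-KO (-4.71 to -1.65). Ifi44 in STING-KO at 7 days no longer passed when either 7-day WT library or 7-day STING-KO replicate 1 was left out (adjusted p = 0.0531, 0.16 and 0.125).

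Sp100 is a scaffold of nuclear bodies that silence viral genomes, and Phf11b and Phf11d are paralogs of the PHD finger family that lie next to each other on chromosome 14 and could share reads. Sp100 (chr1:85649988-85709998) stood at 4.37 and 3.17 CPM in 7-day WT, 31.1 and 30.5 in 7-day cGAS-KO and 22.1 and 26.4 in 7-day STING-KO. At 14 days Sp100 stood at 47.1 and 44.3 CPM in WT, 17.2 and 38 in cGAS-KO and 4.14 and 8.27 in STING-KO. At 14 days the 3 groups of Sp100 did not overlap, with WT highest and STING-KO lowest. Phf11b (chr14:59320964-59341351) stood at 0.224 and 0.153 CPM in 7-day WT, 4.58 and 7.51 in 7-day cGAS-KO and 7.34 and 7.41 in 7-day STING-KO. At 14 days Phf11b stood at 26.5 and 21.2 CPM in WT, 7.92 and 13.6 in cGAS-KO and 1.32 and 3.97 in STING-KO. Phf11b had the largest ratio of the highest to the lowest group mean of the 39 (126), resting on 4 and 3 counts in 7-day WT. It rose at 7 days in STING-KO (5.25 ± 0.67, adjusted p = 5.02e-05), the largest change of any member there. All 3 rose at 7 days in both knockouts and fell at 14 days in STING-KO.

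Lgals9 (galectin-9) is a secreted lectin that modulates T cells and myeloid cells, and Lgals3bp a secreted binding partner of galectins. Lgals9 (chr11:78962974-78984946) stood at 5.89 and 5.68 CPM in 7-day WT, 109 and 92.1 in 7-day cGAS-KO and 98.5 and 102 in 7-day STING-KO. At 14 days Lgals9 stood at 83 and 62.3 CPM in WT, 38.7 and 55.9 in cGAS-KO and 6.06 and 16 in STING-KO. Lgals9 was higher in all 4 of the 7-day knockout libraries than in either 14-day WT library. Lgals3bp (chr11:118392751-118402092) stood at 17.8 and 15.1 CPM in 7-day WT, 200.3 and 231 in 7-day cGAS-KO and 219 and 254 in 7-day STING-KO. At 14 days Lgals3bp stood at 376 and 501 CPM in WT, 208 and 278 in cGAS-KO and 18.2 and 110.4 in STING-KO. Lgals3bp had the highest CPM of the 39 and lay far apart in the replicates of 14-day STING-KO. Both rose at 7 days in both knockouts (Lgals9 4.12 ± 0.37 and Lgals3bp 3.71 ± 0.61 in cGAS-KO, 4.12 ± 0.37 and 3.85 ± 0.61 in STING-KO), and both fell at 14 days in STING-KO (-2.72 ± 0.35 and -2.77 ± 0.58). The fall of Lgals3bp did not pass with no filter or with only the compared libraries fitted (adjusted p = 0.0514 and 0.0562).

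Over all members, 37 of 39 rose and 1 fell (Adar) in cGAS-KO against WT at 7 days, where 27.8% of all tested genes were called higher and 22.4% lower. The members' median log2 change was 2.82, against 0.04 over all tested genes. In STING-KO against WT at 7 days 37 rose and Adar fell as well, against 26.3% of all genes called higher and 22.6% lower, with a median of 2.55. Both comparisons share the 7-day WT libraries. Markers of myeloid cells moved with these rises: 10 monocyte and macrophage markers summed to 9.92 to 28 CPM in 7-day WT and to 4330 to 5495 CPM in the 7-day knockout libraries, with Lyz2 the most abundant and Chil3 at 0 in 7-day WT replicate 2, and 10 microglial markers, none at 0, to 316 to 330 CPM and 2617 to 3668 CPM. Choroid plexus markers summed to 80.5 to 144 CPM in 7-day WT and 2571 to 4614 CPM in the 7-day knockouts. Their part in the result was not tested. In bulk RNA, more cells of a type and more RNA per cell cannot be told apart.

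**Figure D3:**
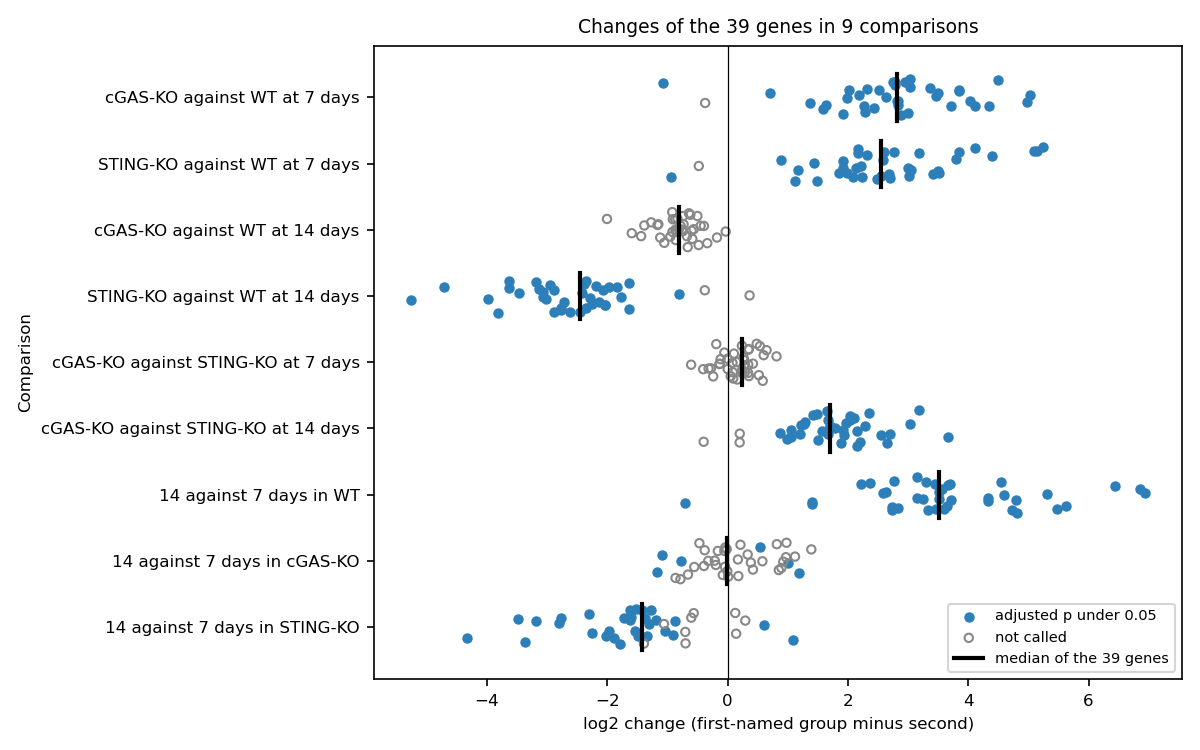
Log2 change of each of the 39 genes (points) in 9 comparisons, first-named group minus second; filled points passed an adjusted p of 0.05 and black bars are the members' medians. Nearly all members lie right of 0 for the 7-day knockouts and left of 0 for STING-KO at 14 days, while none is filled in cGAS-KO against WT at 14 days or between the knockouts at 7 days.

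Between the knockouts at 7 days no member passed in either direction with edgeR or DESeq2, against 0.0858% of all genes called higher in cGAS-KO than in STING-KO and 0.0757% lower. At an unadjusted p under 0.05, 1 member was higher (Ddx58, 0.65 ± 0.28, adjusted p = 0.51) and 0 were lower, against 4.89% and 3.98% of all genes. The libraries did not overlap for 21 members that were higher in cGAS-KO and 4 that were lower, against 19.5% and 21.4% of all genes. The median was 0.24 and the range -0.61 to 0.81.

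In cGAS-KO against WT at 14 days all 39 log2 changes were negative and none passed with edgeR, where 0% of all genes were called higher and 0.0303% lower. The median was -0.81, against -0.01 over all genes. At an unadjusted p under 0.05, 23 members were lower and 0 higher, against 5.55% and 5.47% of all genes. The libraries of 29 members were lower in cGAS-KO without overlap and those of 0 higher, against 20.2% and 20.7% of all genes. The smallest p was that of Ifi27l2a, which stood at 58.6 and 40.2 CPM in WT and 9.88 and 14.8 CPM in cGAS-KO (-2.0 ± 0.31, adjusted p = 0.0614). It passed with DESeq2's Wald test (adjusted p = 4.61e-05), with no filter (0.0172) and with only the compared libraries fitted (0.043), and was then the 1 member called. The 14-day cGAS-KO libraries differed from each other: replicate 2 was higher than replicate 1 for 39 of 39 members, with a median ratio of 1.75. The median change was -0.42 without replicate 1, where Adar and Znfx1 turned positive, and -1.31 without replicate 2. Monocyte and macrophage markers summed to 631 to 944 CPM in 14-day WT and 376 to 401 CPM in cGAS-KO. Lyz2 made up most of both sums (9470 and 15754 counts in WT, 8682 and 7420 in cGAS-KO). Cd163 of the same list went the other way (53 and 42 counts in WT, 86 and 105 in cGAS-KO). Microglial markers summed to 2375 to 2549 CPM in WT and 2063 to 2129 CPM in cGAS-KO. The part of these markers in the change was not tested.

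In STING-KO against WT at 14 days 0 members rose and 37 of 39 fell, against 16.5% of all genes called higher and 17.4% lower, with a median of -2.45. Adar and Znfx1 did not pass. Microglial markers moved with this fall, at 582 to 1083 CPM in STING-KO, as did the summed monocyte and macrophage markers, at 43.4 to 111 CPM. Lyz2 made up most of the latter sum (385 and 1405 counts in STING-KO against 9470 and 15754 in WT). Cd163 of the same list went the other way (206 and 171 counts in STING-KO against 53 and 42 in WT). The part of these markers in the fall was not tested. Set beside 7-day WT with no test, since day and genotype both differ, the group means of 14-day STING-KO had a median ratio of 2.04 and were higher for 37 members, up to 14.0 for Phf11b. The 14-day STING-KO libraries lay apart, with replicate 2 higher for 36 members and a median ratio to replicate 1 of 1.78 (up to 6.05), and replicate 1 was below both 7-day WT libraries for Ifi27, Ifi35, Epsti1 and Adar and between them for Bst2, Ifitm3, Mx2, Helz2, Parp10 and Sp100. Against STING-KO at 14 days, cGAS-KO was higher for 36 members and lower for 0, against 18.2% and 17.7% of all genes, with a median of 1.70. Mx1 differed most (3.67 ± 0.61, adjusted p = 0.00122) and Trim25 least among those called (0.88 ± 0.23, adjusted p = 0.0106; 0.0997 without 14-day cGAS-KO replicate 2 and 0.0834 without 14-day STING-KO replicate 1). Adar (-0.40 ± 0.17, adjusted p = 0.0956), Znfx1 (0.20 ± 0.17, adjusted p = 0.365) and Cmpk2 (0.20 ± 0.26, adjusted p = 0.581) did not pass. The count was 23 without 14-day cGAS-KO replicate 2 and 24 without 14-day STING-KO replicate 1. Of the cell type markers, 10 of 10 microglial, 8 of 8 oligodendrocyte, 6 of 10 astrocyte and 3 of 10 monocyte and macrophage genes were also higher in cGAS-KO. Lower were 5 of 10 striatal projection neuron and 4 of 10 neuronal genes. Cd163 of the monocyte and macrophage list went the other way (86 and 105 counts in cGAS-KO against 206 and 171 in STING-KO). The part of these markers was not tested. This comparison shares libraries with both comparisons against WT.

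From 7 to 14 days in WT 38 members rose and 1 fell, against 24.1% of all genes called higher and 19.7% lower, with a median of 3.52. Phf11b rose most (6.94 ± 0.61, adjusted p = 7.14e-06) and Adar fell (-0.70 ± 0.17, adjusted p = 0.00679), although not past the threshold without 14-day WT replicate 1 (0.0563). Of the markers in WT, 10 of 10 microglial and 7 of 10 monocyte and macrophage genes also rose over these days and 10 of 10 neuronal genes fell; their part was not tested. From 7 to 14 days in cGAS-KO 3 members rose and 3 fell, against 13.4% and 17.0% of all genes. Cmpk2 (1.18 ± 0.27, adjusted p = 0.00735), Herc6 (1.0 ± 0.25, adjusted p = 0.0104) and Znfx1 (0.53 ± 0.17, adjusted p = 0.0314) rose, and Bst2 (-1.17 ± 0.36, adjusted p = 0.0315), Lgals9 (-1.09 ± 0.32, adjusted p = 0.025) and Trim25 (-0.78 ± 0.22, adjusted p = 0.0192) fell; all 6 are named since neither direction held most. These calls rest on single libraries: 11 rose and 0 fell without 14-day cGAS-KO replicate 1, 0 rose and 6 fell without replicate 2, 0 passed without 7-day cGAS-KO replicate 1, and 3 rose and 0 fell without 7-day cGAS-KO replicate 2. Markers in cGAS-KO differed between the days. Those of monocytes and macrophages, most of them Lyz2, summed to 4330 to 4875 CPM at 7 days and 376 to 401 CPM at 14 days. Microglial markers summed to 2617 to 2906 and 2063 to 2129 CPM. Striatal projection neuron markers summed to 222 to 553 and 2000 to 3233 CPM. The part of these markers was not tested. From 7 to 14 days in STING-KO 28 members fell and 2 rose, against 29.5% and 27.4% of all genes, with a median of -1.42. Bst2 fell most (-4.32 ± 0.43, adjusted p = 1.12e-05), and Adar (0.60 ± 0.17, adjusted p = 0.0114) and Cmpk2 (1.09 ± 0.28, adjusted p = 0.00538) rose; Adar did not pass without 14-day STING-KO replicate 2 or 7-day STING-KO replicate 2 (0.0899 and 0.102). In STING-KO, 8 of 10 microglial and 7 of 10 monocyte and macrophage markers fell over these days too, and their part was not tested. The 9 members that did not pass were Herc6, Usp18, Ifih1, Znfx1, Helz2, Rtp4, Samd9l, Ifi44 and Xaf1. The count called in STING-KO was 20 without 14-day STING-KO replicate 1 and 21 without 7-day STING-KO replicate 2.

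The effect of each label differed between the days. For cGAS-KO the 14-day effect was below the 7-day effect for 37 members and above it for Adar, against 21.0% of all genes called lower and 15.7% higher, with a median difference of -3.71. For STING-KO the counts were also 37 and 1 (Adar), against 27.6% and 24.3%, with a median of -5.12. Ifi27l2a differed most in both (-6.49 ± 0.58 and -9.80 ± 0.61), Znfx1 least among those called (-0.87 ± 0.24 and -1.26 ± 0.24), and Cmpk2 did not pass (-0.23 ± 0.38, adjusted p = 0.683 and -0.32 ± 0.38, adjusted p = 0.508). For cGAS-KO, Znfx1 did not pass when 1 of 4 libraries was left out: 14-day cGAS-KO replicate 1, 14-day WT replicate 2, 7-day cGAS-KO replicate 2 or 7-day WT replicate 1 (adjusted p = 0.0584, 0.0511, 0.0853 and 0.0558). Mx2 did not pass there without 14-day WT replicate 1, 7-day cGAS-KO replicate 1 or 7-day WT replicate 2 (0.056, 0.0527 and 0.088). The 7-day and 14-day WT libraries enter both differences.

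Between 14-day WT and the 7-day knockout groups, which differ in both day and genotype and so were set side by side with no test, the members separated by gene. The ratio of the group means of 14-day WT to 7-day cGAS-KO had a median of 1.64 and was above 1 for 33 members. It ran from 0.723 for Lgals9, 0.792 for Ifi35, 0.858 for Bst2 and 0.897 for Parp10 to 4.05 for Rsad2, 5.17 for Ifi44, 5.72 for Mx1 and 6.37 for Usp18. Against 7-day STING-KO the ratio was 0.724 for Lgals9, 0.792 for Bst2 and 9.04 for Ifi44. The summed monocyte and macrophage markers, most of them Lyz2, were 4330 to 5495 CPM in the 7-day knockouts against 631 to 944 CPM in 14-day WT, while 2 markers of that list, Ly6c2 (10.1 to 15 CPM in 14-day WT and 0.860 to 3.08 in the 7-day knockouts) and Plac8 (4.99 to 6.02 and 1.15 to 4.71 CPM), had the other order. Their part in the ratios was not tested.

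**Figure D4:**
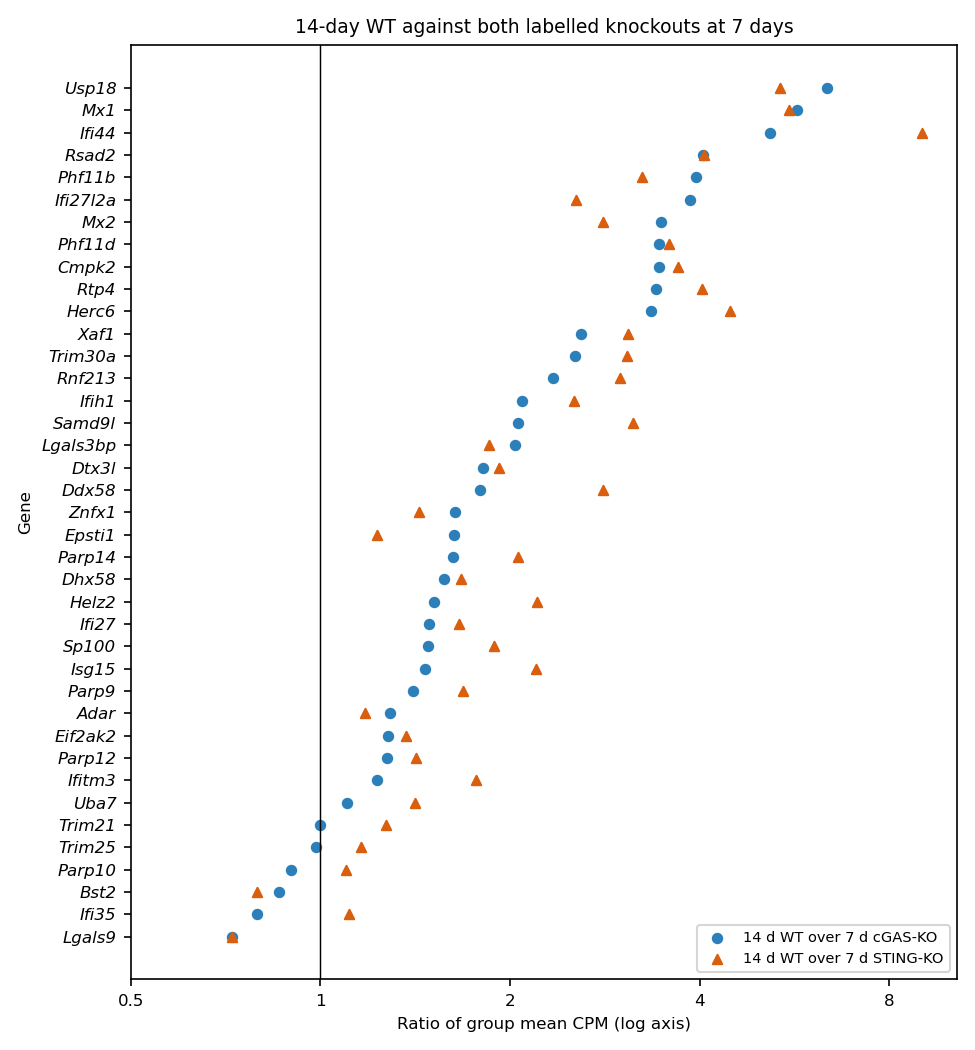
Ratio of the mean CPM in 14-day WT to that in 7-day cGAS-KO (circles) and 7-day STING-KO (triangles) for each of the 39 genes, on a log axis. Lgals9 and Bst2 lie left of 1 for both knockouts and Usp18, Mx1 and Ifi44 lie farthest right, at ratios of 5.17 to 9.04.

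Other genes of the interferon pathway were counted in 5 lists. Of all tested genes, 27.8% were called higher and 22.4% lower in cGAS-KO against WT at 7 days, and 26.3% and 22.6% in STING-KO. At 14 days 16.5% were called higher and 17.4% lower in STING-KO against WT, and 0% and 0.0303% in cGAS-KO. In cGAS-KO against STING-KO the shares were 0.0858% and 0.0757% at 7 days and 18.2% and 17.7% at 14 days. At 7 days in cGAS-KO 3 of 6 Ifit genes, 16 of 17 interferon-induced GTPases, 9 of 12 tested Ifi200 genes, 8 of 8 Schlafen genes and 17 of 20 receptors and signalling genes rose, and 0 fell; in STING-KO 4, 13, 6, 7 and 18 rose and 0 fell. Ifit1 (3.27 ± 0.62, adjusted p = 0.00115), which binds foreign RNA caps, was an example in cGAS-KO. At 14 days in STING-KO 5, 16, 10, 7 and 17 genes of these lists fell, with 1 signalling gene higher; Ifit2 (-2.42 ± 0.27, adjusted p = 9.79e-05) was an example. In cGAS-KO at 14 days 1 gene of these lists passed, Slfn4 (-4.62 ± 0.58, adjusted p = 0.0114). Between the knockouts at 7 days none passed. In cGAS-KO against STING-KO at 14 days 4, 9, 8, 5 and 16 were higher, with 2 signalling genes lower. None of the 20 interferon genes passed the filter, and their summed level was at most 0.483 CPM in any library.

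**Figure D5:**
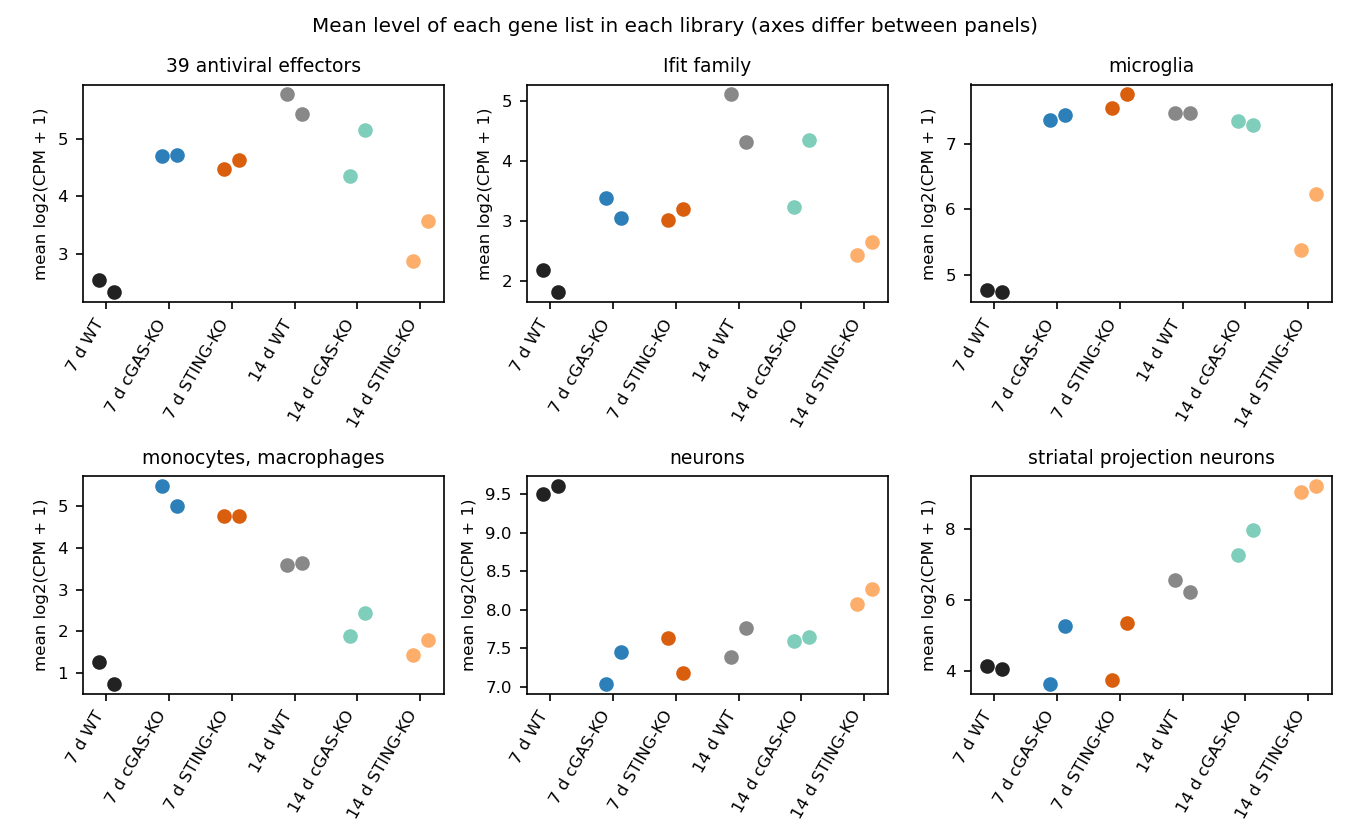
Mean log2(CPM + 1) over the genes of each list in each of the 12 libraries (points, coloured by group; axes differ between panels and do not start at 0). By group mean, the 39 effectors and the Ifit family are highest in 14-day WT, the monocyte and macrophage markers in the 7-day knockouts, the neuronal markers in 7-day WT and the striatal projection neuron markers in 14-day STING-KO.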

How the data were processed

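The authors deposited 1 file of raw gene counts for each library, keyed by Ensembl ID. The authors aligned reads to mm10 with HISAT2 and counted them with featureCounts, per the submitters' processing notes; versions, annotation release and strand setting are not given in the sources used here. Symbols, exons and coordinates came from GENCODE M21 (GRCm38, the same build as mm10), promoters from RefSeq (GRCm38.p6). Groups came from the library titles. The 39 members, their roles and the gene lists were chosen with earlier results of these data known.

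Tests on the counts used edgeR 4.0.16 (R 4.3.3). A gene was kept by filterByExpr (minimum count 10, minimum total 15), which left 19822 genes. TMM factors were used and 12 libraries entered 1 quasi-likelihood fit (robust, legacy form off) with 6 groups and 6 residual degrees of freedom. Each of 11 contrasts was Benjamini-Hochberg adjusted over all genes, with a threshold of 0.05, and each SE was taken as |log2 change| divided by the root of the F statistic. The steps were tested on simulated counts. A further interferon pathway list is not reported here.

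The text gives, in every library, the 2 members of each role with the highest mean CPM. It names for each contrast the largest and smallest called changes, members called against the majority, and all of them where 5 or fewer passed, and examples from the other lists among the 2 smallest p-values. Isg15, Mx1, Rsad2, Cmpk2 and single-library exceptions were added after their values were seen, as were the 6 promoters. Alternatives were DESeq2 size factors, library totals, the Wald test of DESeq2 1.42.0, dropping the filter, tightening it (at least 2 libraries with 1 CPM and 10 counts), fitting only the compared libraries, the replicate block, the legacy fit and leaving out each library. Fits without the 7-day WT group or without the 14-day STING-KO group were added after seeing the data.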

Additional observations from a re-analysis of the deposited data

Results flagged for a closer look

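The change between each labelled knockout and WT differed between 7 and 14 days by a test of the difference itself (edgeR's interaction contrast, Benjamini-Hochberg adjusted), in 38 of 39 members for cGAS-KO and in 38 of 39 for STING-KO, the exception being Cmpk2. Among the 2 most abundant members of each role, the 14-day effect minus the 7-day effect of cGAS-KO on the log2 scale was as follows: Uba7 (-3.71), Trim25 (-3.54), Adar (1.04), Znfx1 (-0.87), Bst2 (-5.97), Ifitm3 (-5.19), Parp12 (-2.57), Parp14 (-4.59), Trim30a (-4.38), Rnf213 (-3.28), Ifi27 (-2.23), Xaf1 (-1.84), Sp100 (-3.76), Phf11b (-6.12), Lgals9 (-4.74) and Lgals3bp (-4.56). For STING-KO the same differences were as follows: Uba7 (-5.30), Trim25 (-4.18), Adar (1.30), Znfx1 (-1.26), Bst2 (-9.12), Ifitm3 (-6.63), Parp12 (-3.63), Parp14 (-5.93), Trim30a (-6.14), Rnf213 (-4.71), Ifi27 (-3.13), Xaf1 (-3.30), Sp100 (-5.58), Phf11b (-8.44), Lgals9 (-6.84) and Lgals3bp (-6.62). Adar was the 1 member with a positive difference in both. The 7-day WT libraries, in which the members were low, the myeloid markers lowest and the neuronal markers highest, enter every one of these values, and the part of tissue makeup in them was not tested.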

How the results depend on the processing

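Counts of members called stayed within 1.5 times in all 11 contrasts under every alternative but leaving out a library, except in cGAS-KO against WT at 14 days, where 1 member (Ifi27l2a) passed under the DESeq2 Wald test, with no filter and with only the libraries compared, against 0 otherwise. With 1 library left out, the counts ranged from 34 to 38 for cGAS-KO and 34 to 37 for STING-KO against WT at 7 days, 0 to 0 and 36 to 37 at 14 days, 0 to 0 and 23 to 35 for cGAS-KO against STING-KO at 7 and 14 days, 38 to 39, 0 to 11 and 20 to 30 for 14 against 7 days in WT, cGAS-KO and STING-KO, and 37 to 38 and 38 to 38 for the differences between days; a group left with 1 library borrowed its spread from the remaining groups. Over all 429 pairs of a member and a contrast and all alternatives (5967 values), 5747 kept their direction and side of the threshold, 128 no longer passed, 31 newly passed and 61 turned sign, 47 of these with 1 library left out. No value that turned had passed before or passed after. Of the 61, 25 were in 14 against 7 days in cGAS-KO and 25 in cGAS-KO against STING-KO at 7 days. The other 11 turned with 1 library left out, with these ranges of log2 change: in cGAS-KO against WT at 14 days Adar -0.172 to 0.0885 (with a second positive value of 0.0489) and Znfx1 -0.390 to 0.00128; in cGAS-KO against STING-KO at 14 days Znfx1 -0.00903 to 0.382 and Cmpk2 -0.331 to 0.585; in 14 against 7 days in STING-KO Herc6 -0.0490 to 0.283, Znfx1 -0.0270 to 0.289 and Ifi44 -0.0746 to 0.600; and in the difference between days for cGAS-KO Cmpk2 -0.751 to 0.166 (also positive at 0.0178 and 0.0543). Fits with the replicate number as a block gave the same counts in all 11 contrasts (37 and 1 for cGAS-KO at 7 days, 36 at 14 days against STING-KO). Deviations of same-numbered libraries correlated at -0.144 to 0.268 over 15 pairs of groups, with a median of 0.0232 and 5 over 0.1. Whether the numbers pair the libraries was not tested. Scaling by library totals alone moved the median of all genes to 0.12 for 14 against 7 days in WT, -0.11 for STING-KO against WT at 14 days and -0.10 for the difference between days of the cGAS-KO effect. Members of few counts (Phf11b with 4 and 3, Mx1 with 9 and 4 in 7-day WT) have changes that depend on those counts.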
